A study of Homo sapiens with 4 samples.

Results

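The genes described here build and maintain the contacts between epithelial cells: cadherins and catenins, claudins and other tight junction proteins, desmosomal proteins, the transcription and splicing factors that keep the epithelial program on, and the serine proteases and inhibitors of the epithelial surface. They were chosen by gene symbol as a list of 35, and 32 of them had a probe set that the platform annotation gives to 1 gene, of 18417 genes in all. CTNND1 lies on a probe set shared with a read-through transcript, and F11R and ESRP1 were not matched to a probe set; these 3 were not analysed here. All 32 had a mean signal over the 4 arrays above the minimum used for testing, a log2 value of 5.64, as did 14547 of all genes, so no measured gene of the list was lost to that filter.

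The RNA came from SNU-16, a human gastric carcinoma cell line carrying amplified FGFR2 and MYC, after growth in BalB/c nude mice, which lack a thymus and with it most T cells. The round 1 stomach group came from the tumour that grew where SNU-16 cells had been implanted in the stomach, and the round 1 ovary group from metastases in the ovaries of mice implanted in the same way. Those recovered cells were cultured for 7 days and implanted in the stomach again: stomach-derived cells gave the round 2 stomach tumour and ovary-derived cells the round 2 ovarian metastasis. RNA was taken from cell pellets of each line, and each of the 4 combinations of site and round has 1 array. No array of SNU-16 cells that had not been through a mouse is among these groups. The sources used here do not give the age or sex of the mice, or whether animals were pooled. The free-text descriptions of both round 2 samples are at odds with their titles: the stomach sample is described as grown from the ovary, and the last words for the ovary sample place its tumour in the stomach. The titles and tissue labels were followed. If those arrays were exchanged, the round 2 and mean site differences and the round differences within each site would change, and the round 1 site differences and mean round differences would not. Because round 2 lines descend from round 1 lines of the same site, the arrays of each site differ by successive passages of 1 lineage, and their spread may in part be technical.

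Epithelial cells are held together by adherens junctions, in which E-cadherin binds its like on the next cell and is tied to actin by catenins, by desmosomes, in which desmogleins and desmocollins are tied to keratin through plakoglobin, plakophilins and desmoplakin, and by tight junctions, in which claudins seal the space between cells. Grainyhead-like and OVOL factors and the splicing factors ESRP1 and ESRP2 hold cells in the epithelial state, whereas ZEB and SNAI factors repress E-cadherin and its partners by binding E-boxes in their promoters. In gastric carcinoma, loss of E-cadherin is known from the diffuse type, and claudins are often expressed at other levels than in normal mucosa.

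Promoters of some of the genes are shown because those repressors bind E-boxes in promoters. They were picked with the results and the E-boxes known and do not stand for the list. The RefSeq table (GRCh38.p14) held a promoter window for 21 of the 35 genes, from 250 bases before to 50 bases after each start. Among the genes without a window were CDH1, EPCAM, GRHL2, OVOL1, PRSS8 and SPINT2. The E-box CACCTG, or CAGGTG on the opposite strand, was found in at least 1 window of 12 of these 21 genes (57.1%). It was found in 24.1% of all 27305 genes there, and of single windows 35.3% of 34 against 20.6% of 35116. Below are the 250 bases before a start, 5′ to 3′ on the gene's strand, in lower case with E-boxes in capitals, for 3 desmosomal genes whose round 2 arrays were both above their round 1 arrays, for SPINT1, whose ovary arrays were both below its stomach arrays, and for CLDN1, which had the largest differences. DSC2, DSG2 and JUP are at chr18:31102422-31102671 (minus strand), chr18:31497927-31498176 (plus strand) and chr17:41785977-41786226 (minus strand). SPINT1 is at chr15:40844227-40844476 (plus strand) and CLDN1 at chr3:190322447-190322696 (minus strand).
DSC2: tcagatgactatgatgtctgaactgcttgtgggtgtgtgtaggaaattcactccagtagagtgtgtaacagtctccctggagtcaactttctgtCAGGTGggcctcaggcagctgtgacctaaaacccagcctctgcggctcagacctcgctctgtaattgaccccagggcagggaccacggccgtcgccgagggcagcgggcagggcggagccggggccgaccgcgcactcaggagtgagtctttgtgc
DSG2: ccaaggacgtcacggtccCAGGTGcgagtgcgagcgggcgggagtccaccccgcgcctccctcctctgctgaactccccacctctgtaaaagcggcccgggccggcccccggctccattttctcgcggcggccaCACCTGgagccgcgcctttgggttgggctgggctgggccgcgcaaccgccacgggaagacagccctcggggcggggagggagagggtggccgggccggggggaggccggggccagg
JUP: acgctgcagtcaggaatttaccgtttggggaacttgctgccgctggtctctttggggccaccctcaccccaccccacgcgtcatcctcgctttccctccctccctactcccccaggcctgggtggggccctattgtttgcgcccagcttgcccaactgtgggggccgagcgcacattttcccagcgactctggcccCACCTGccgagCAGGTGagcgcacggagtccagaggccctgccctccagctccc
SPINT1: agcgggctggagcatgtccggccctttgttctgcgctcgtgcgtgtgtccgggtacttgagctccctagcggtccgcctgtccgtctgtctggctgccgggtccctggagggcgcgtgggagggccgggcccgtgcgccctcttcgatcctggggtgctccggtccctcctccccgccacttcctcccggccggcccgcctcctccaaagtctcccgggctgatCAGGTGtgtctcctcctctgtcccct
CLDN1: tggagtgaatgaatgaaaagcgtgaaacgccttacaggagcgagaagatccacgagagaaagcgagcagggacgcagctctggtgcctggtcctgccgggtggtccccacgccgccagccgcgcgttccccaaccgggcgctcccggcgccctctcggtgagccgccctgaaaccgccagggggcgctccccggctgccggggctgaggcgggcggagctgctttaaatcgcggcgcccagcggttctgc
DSG2 and JUP had 2 E-boxes each, DSC2 and SPINT1 had 1, and CLDN1 had 0. For DSC2, JUP and SPINT1 a further window of the same gene, at another start, held none. Of the genes not shown whose round 2 arrays were both above their round 1 arrays, CLDN3, TJP1 and ELF3 had 1 E-box in a window. GRHL1, CGN, CTNNA1 and CLDN12 had 0 in every window held. The most E-boxes in 1 window were 5, in CLDN7 and in CRB3. These are matches of letters, and binding was not measured here.

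The arrays carried the signal of an epithelial line. Medians over all 33297 rows lay between 6.80 and 6.84, and the array number, 4 in all, limits the precision of every value. All 6 epithelial markers (KRT8, KRT18, KRT19, KRT7, EPCAM and CDH1) were above the signal minimum, with values between 7.73 and 12.69. Their signals, summed on the linear scale, were 22106 and 23704 on the stomach arrays, 18278 on the round 1 ovary array and 22978 on the round 2 ovary array. FGFR2, MYC and CD44 stood between 11.96 and 13.41 on every array. Leukocyte markers were above the minimum in 3 of 6, fibroblast markers in 4 of 6 and endothelial markers in 2 of 5. Their summed signals were 381 to 408, 462 to 513 and 215 to 238. PTPRC, which defines leukocytes, was at most 4.11, DCN at most 4.04 and PECAM1 at most 4.90. Other genes of these lists were higher. The highest leukocyte marker, TYROBP, was at 7.38 to 7.48, the highest fibroblast marker, COL1A1, at 7.54 to 7.62, and the highest endothelial marker, CDH5, at 6.08 to 6.16. Mesothelial markers, 3 of 3 above the minimum, summed to 328 and 404 in stomach and 419 and 383 in ovary, highest on the round 1 ovary array. MSLN and CALB2 were each highest on that array. WT1 went the other way, at 6.48 and 6.40 in stomach and 6.33 and 6.31 in ovary. Those of ovarian stroma and follicle, 4 of 6 above the minimum, summed to between 508 and 571. Any cells carried over from the host would be mouse cells, whereas the genes read here are human. These markers would report them only through cross-hybridization, which was not measured, so their values do not give the share of host cells. The part of other cells in the differences below was not tested.

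None of the 32 genes passed the test for a difference between sites, between rounds or in the interaction of both, and the differences given here are descriptions of these 4 arrays. In limma's fits of all 14547 genes, with Benjamini-Hochberg adjustment, 0 were called in each (0%). Most of the genes were level: the distance from the lowest to the highest of the 4 arrays was 0.29 log2 units in the median, against 0.26 over all tested genes, and CLDN1, at 1.74, was the widest. The array most often lowest was that of the round 1 ovary line. It was the lowest of the 4 for 19 of 32 genes (59.4%), against 23.9% of all tested genes, and the same array had the lowest summed epithelial markers, of which CDH1 and EPCAM are in both lists. KRT7 was at 8.68 and 9.68 in stomach and 7.73 and 9.89 in ovary, and KRT8, KRT18 and KRT19 were also lowest there. Its part in these results was not tested, and in RNA from a whole line fewer cells expressing a gene and less RNA per cell cannot be told apart. The round 2 ovary array was the highest for 13 (40.6%), against 24.3%.

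**Figure D1:**
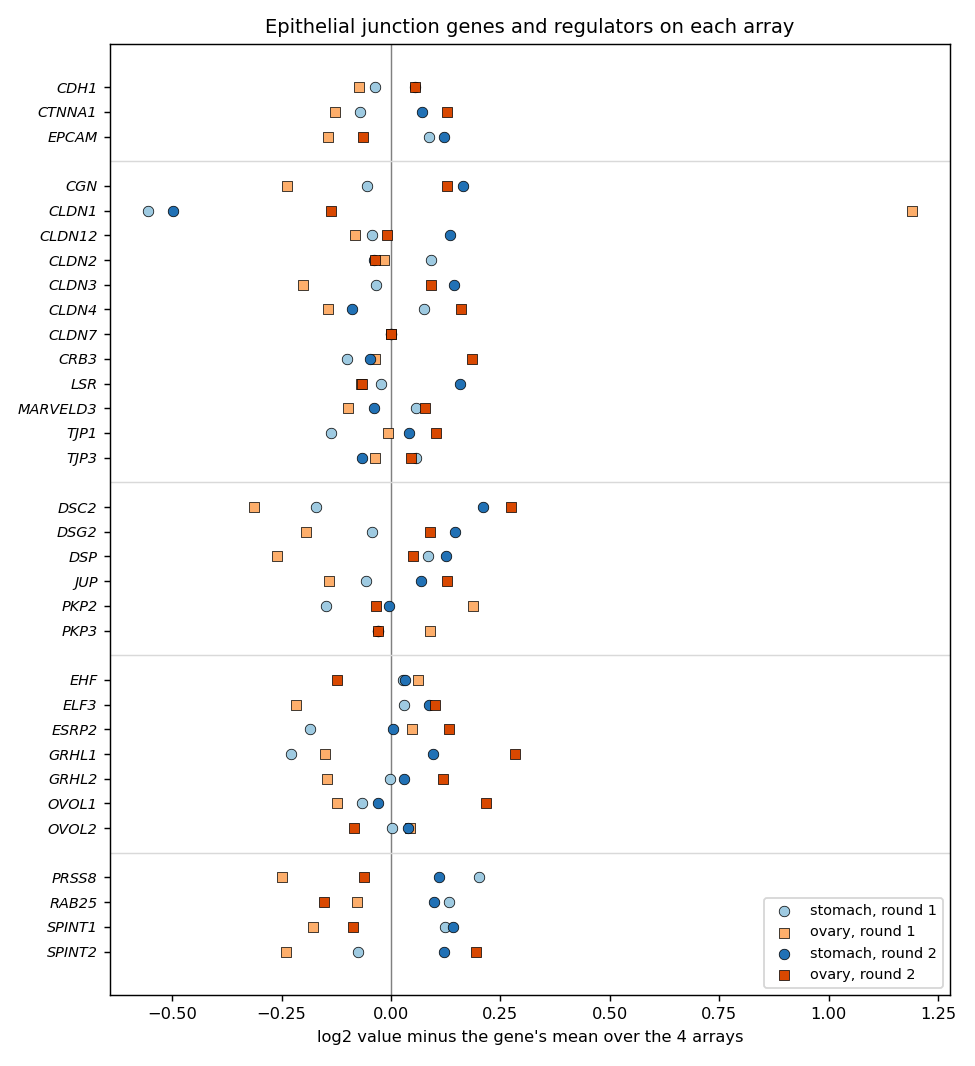
Each row is 1 gene, and the x axis is its log2 value on an array minus its mean over the 4 arrays; circles are stomach lines, squares ovary lines, light symbols round 1 and dark symbols round 2, with gene groups divided by lines (from the top: adherens junction, tight junction, desmosome, regulators, and surface proteases with their inhibitors and RAB25). The light square of the round 1 ovary array is the leftmost symbol in 19 rows, and CLDN1 is the gene in which it lies far to the right.

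**Figure D2:**
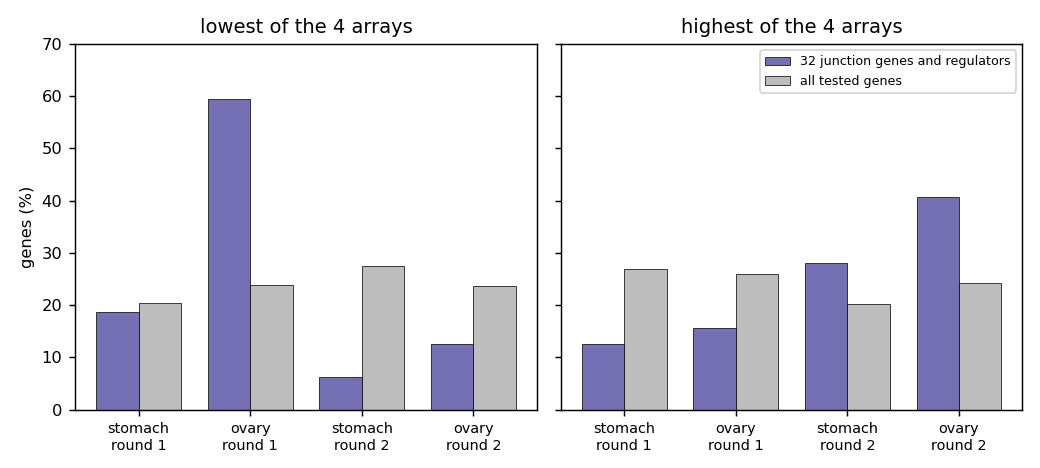
Bars give the percent of genes whose lowest (left) or highest (right) value fell on each array, for the 32 measured junction genes and regulators and for all 14547 tested genes; genes with a tie for the extreme are in no bar. The round 1 ovary array was lowest for 59.4% of the 32 genes and 23.9% of all.

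Among adherens junction genes, CDH1 was nearly constant. CDH1, which encodes E-cadherin, had log2 values of 11.53 and 11.63 in the stomach lines of rounds 1 and 2, and 11.50 and 11.63 in the ovary lines. Both round 2 values lay above both round 1 values, by 0.093 in stomach and 0.13 in ovary, and the site difference was -0.018 ± 0.10 (limma's standard error, ovary minus stomach, n = 2 arrays per site; round differences below are round 2 minus round 1, also with limma's standard error). CTNNA1, the alpha-catenin that links the cadherin complex to actin, stood at 10.06 and 10.21 in stomach and 10.01 and 10.26 in ovary. Its rounds did not overlap either, and the round difference was 0.20 ± 0.073. EPCAM, a homophilic adhesion molecule of epithelia that also binds claudins, was counted in this group throughout, though it is no cadherin or catenin. Of the group, EPCAM was the gene in which the sites stood apart. It was at 12.05 and 12.09 in stomach and 11.82 and 11.90 in ovary, 1.16-fold lower in ovary on average (-0.21 ± 0.090). A second EPCAM probe set, of lower signal, gave 11.68 and 11.85 in stomach and 11.60 and 11.58 in ovary, so both were below in each round, by 0.23 and 0.18 on the first and by 0.085 and 0.27 on the second. It may read a near-identical copy of the gene, so its level is uncertain.

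Of the whole list, CLDN1 had the largest differences. CLDN1, a barrier-forming claudin, was at 7.25 and 7.31 in stomach and 8.998 and 7.67 in ovary. The round 1 ovary array was far above the other 3, and the round 2 ovary array was still above both stomach arrays. The site difference was 1.74 in round 1 (3.35-fold) and 0.36 in round 2 (1.28-fold), with a mean of 1.05 ± 0.44. Between rounds it differed by 0.057 in stomach lines and by -1.33 in ovary lines. The mean site difference of CLDN1 exceeded in size that of 99.9% of tested genes, but its adjusted p in limma was 1, and 0.77 with the round as a replicate block.

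The other claudins differed far less. CLDN3 was at 11.44 and 11.62 in stomach and 11.27 and 11.57 in ovary, with both round 2 arrays above both round 1 arrays (0.24 ± 0.089). CLDN4, its close relative, was at 9.96 and 9.79 in stomach and 9.74 and 10.04 in ovary. Its site difference had opposite signs in the rounds, -0.22 and 0.25, and of the 32 genes it had the smallest interaction p in limma (0.0575, adjusted p = 1). That fit holds no site or round term, so mean site and round differences count as error, and both were small in CLDN4 (0.014 and 0.069). The interaction term was larger in size in CLDN1 (-0.69 ± 0.58) than in CLDN4 (0.23 ± 0.093). CLDN12 was at 11.93 and 12.11 in stomach and 11.90 and 11.97 in ovary, again with both round 2 arrays above (0.13 ± 0.084). CLDN2, a claudin that forms pores for cations, was close to the signal minimum, at 5.80 and 5.67 in stomach and 5.69 and 5.67 in ovary, and is the 1 gene of the list whose round 2 arrays were both below its round 1 arrays (-0.075 ± 0.076). CLDN7 had the value 11.27 on all 4 arrays and was identical to every deposited digit on 3 of them. Such repeats on at least 3 arrays occurred in 1.70% of tested genes, PKP3 among them, and the error of such genes is not given.

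Of the scaffold and polarity genes of the tight junction, CGN differed most between arrays, and the others were closer to level. TJP1, the scaffold ZO-1, was at 10.62 and 10.80 in stomach and 10.75 and 10.86 in ovary, with a round difference of 0.14 ± 0.083 and no overlap of rounds. CGN, which encodes cingulin and links ZO proteins to actomyosin, was at 8.22 and 8.44 in stomach and 8.04 and 8.40 in ovary. Its round difference of 0.29 ± 0.091 was the largest of the tight junction genes after CLDN1 and was present in stomach (0.22) and in ovary (0.36). TJP3, the scaffold ZO-3, had 9.55 and 9.42 in stomach and 9.45 and 9.53 in ovary, with overlap in both comparisons. So had MARVELD3, a tight junction protein of the occludin family, with 8.07 and 7.97 in stomach and 7.91 and 8.09 in ovary. LSR, the angulin that builds junctions where 3 cells meet, was at 9.57 and 9.75 in stomach and 9.52 and 9.53 in ovary, so the sites did not overlap (-0.14 ± 0.10). CRB3, an apical polarity protein, stood at 7.36 and 7.42 in stomach and 7.43 and 7.65 in ovary, apart in the other direction (0.15 ± 0.11).

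The desmosomal cadherins and plakoglobin were higher in round 2 at both sites. DSC2, which encodes desmocollin 2, was at 9.65 and 10.03 in stomach and 9.51 and 10.10 in ovary. Both round 2 arrays were above both round 1 arrays, 1.3-fold in stomach and 1.5-fold in ovary, and the mean difference of 0.48 ± 0.085 was larger in size than that of 97.1% of tested genes. It had the smallest p of the list in this comparison (limma adjusted p = 0.287). DSG2, desmoglein 2, its partner cadherin, was at 10.72 and 10.91 in stomach and 10.57 and 10.86 in ovary (0.24 ± 0.086). JUP, plakoglobin, which binds the tails of both, was at 10.92 and 11.04 in stomach and 10.83 and 11.10 in ovary (0.20 ± 0.076). The rounds did not overlap in either gene. The promoters of DSC2, DSG2 and JUP are printed above.

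Rounds overlapped in DSP and PKP2. DSP, desmoplakin, which anchors keratin filaments, was at 11.15 and 11.19 in stomach and 10.80 and 11.11 in ovary. Its ovary arrays were both below its stomach arrays, by 0.35 in round 1 and 0.076 in round 2, and its round difference was 0.042 in stomach against 0.31 in ovary. PKP2, a plakophilin, was at 11.12 and 11.27 in stomach and 11.46 and 11.24 in ovary, with its highest value on the round 1 ovary array, where DSP, DSG2, DSC2 and JUP had their lowest. PKP3, another plakophilin, had 8.03 on 3 arrays, identical to every deposited digit, and 8.15 on the round 1 ovary array.

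Of the regulators, GRHL1 had the largest round difference. GRHL1, a Grainyhead-like transcription factor that activates desmosomal cadherin genes in epidermis, was at 8.46 and 8.78 in stomach and 8.54 and 8.97 in ovary. Both round 2 arrays were above both of round 1, by 0.32 and 0.43 (0.38 ± 0.10, limma adjusted p = 0.287). GRHL2, which maintains CDH1 and claudin expression, was at 10.42 and 10.46 in stomach and 10.28 and 10.54 in ovary; its rounds did not overlap, but stomach lines differed by only 0.033 (0.15 ± 0.088). OVOL1, a zinc finger factor that represses ZEB genes, was at 8.62 and 8.66 in stomach and 8.56 and 8.90 in ovary, again mostly a difference of the ovary lines (0.34 against 0.037 in stomach). Its relative OVOL2 was at 8.08 and 8.12 in stomach and 8.12 and 7.99 in ovary, lowest on the round 2 ovary array, where OVOL1 was highest.

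ESRP2, a splicing factor that produces epithelial isoforms such as that of FGFR2, was at 9.32 and 9.51 in stomach and 9.55 and 9.64 in ovary. Its sites did not overlap, with ovary higher by 0.23 in round 1 and 0.13 in round 2 (0.18 ± 0.11). ELF3 and EHF, ETS factors of epithelia, went separate ways. ELF3 was at 10.52 and 10.58 in stomach and 10.27 and 10.59 in ovary, the round 1 ovary array alone being low. EHF was at 10.50 and 10.50 in stomach and 10.53 and 10.35 in ovary, the round 2 ovary array alone being low.

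Genes of the surface protease system stood apart in different comparisons, PRSS8 and SPINT1 between sites and SPINT2 between rounds. PRSS8, which encodes prostasin, a membrane-anchored serine protease, was at 10.02 and 9.93 in stomach and 9.57 and 9.75 in ovary. Both ovary arrays were below both stomach arrays, 1.37-fold in round 1 and 1.13-fold in round 2, and the mean difference of -0.31 ± 0.11 was larger in size than that of 95.8% of tested genes (limma adjusted p = 1). SPINT1, the Kunitz inhibitor HAI-1, which restrains prostasin and its activator matriptase, was at 10.12 and 10.14 in stomach and 9.82 and 9.91 in ovary. It was 1.2-fold lower in ovary on average (-0.27 ± 0.091, limma adjusted p = 1), in round 1 by 0.30 and in round 2 by 0.23. RAB25, a small GTPase of apical recycling vesicles, showed the same order, with 10.69 and 10.66 in stomach and 10.48 and 10.41 in ovary (-0.23 ± 0.089).

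SPINT2, the related inhibitor HAI-2, stood apart between rounds and overlapped between sites. Its values were 9.92 and 10.12 in stomach and 9.76 and 10.19 in ovary, so both round 2 arrays were above both of round 1 (0.32 ± 0.090, limma adjusted p = 0.288). Its site difference was -0.047 ± 0.18, and ± 0.10 with the round as a replicate block. ST14, which encodes matriptase and is no member of the list, stood with SPINT2, at 10.37 and 10.84 in stomach and 10.25 and 10.65 in ovary (0.44 ± 0.10 between rounds, limma adjusted p = 0.287).

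**Figure D3:**
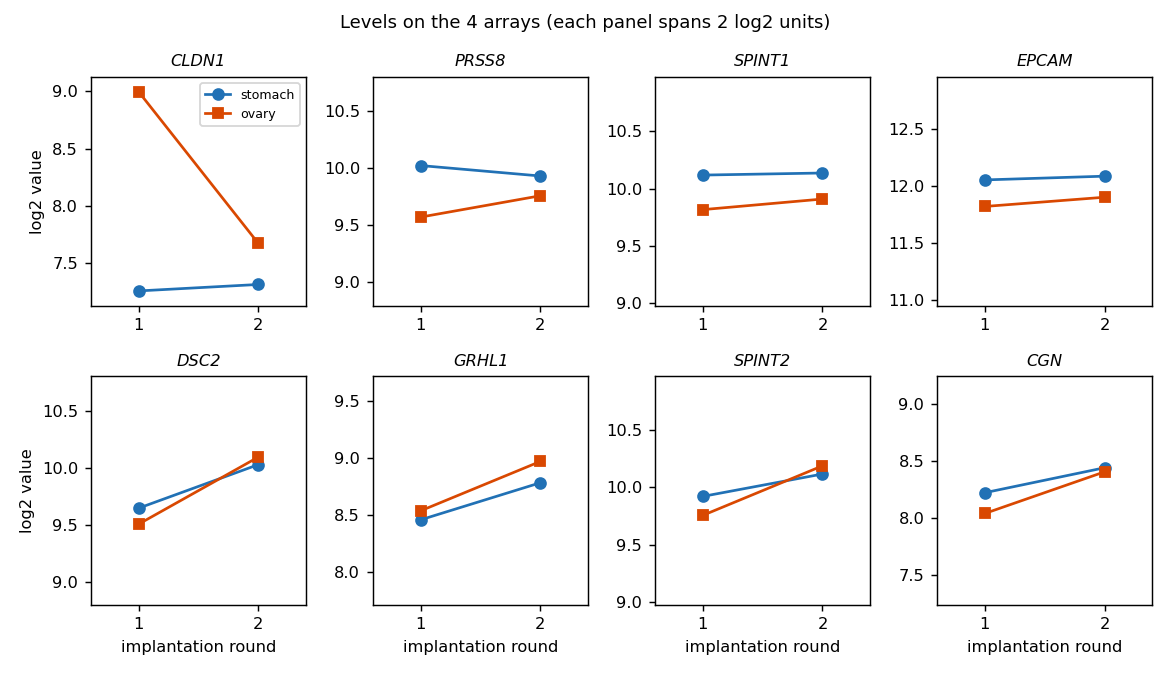
Log2 values of 8 genes on the 4 arrays against the implantation round, blue circles for stomach lines and orange squares for ovary lines, with 1 array per point and a y axis of 2 log2 units in every panel. The top row holds genes whose sites do not overlap, with CLDN1 higher and PRSS8, SPINT1 and EPCAM lower in ovary; the bottom row holds genes whose rounds do not overlap.

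Over the list, the comparison of sites asks whether cells from ovarian metastases carried other levels of junction genes than cells from stomach tumours. Both ovary arrays were below both stomach arrays in 6 genes (EPCAM, DSP, LSR, PRSS8, SPINT1 and RAB25), 18.8% of 32, where 11.2% of all tested genes were. Both were above in 3 (CLDN1, ESRP2 and CRB3), where 13.4% of all were. The median site difference of the list was -0.032, beside 0.0016 for all tested genes. It was -0.090 in round 1 and 0.0012 in round 2. Without the round 1 ovary array it was 0.043, of opposite sign, without the round 2 ovary array -0.13, without the round 1 stomach array -0.064 and without the round 2 stomach array -0.0052. With 3 arrays, where fewer values must be in order, 8 to 20 genes were below in ovary (26.1% to 32.5% of all tested genes) and 5 to 14 above (27.8% to 34.01%). The most below, 20, came without the round 2 ovary array and the most above, 14, without that of round 1. By group, the median site difference was -0.018 for 3 adherens junction genes, -0.0099 for 12 tight junction genes, -0.025 for 6 desmosome genes and -0.027 for 7 regulators, and -0.25 for PRSS8, SPINT1, SPINT2 and RAB25. With an unadjusted p under 0.05 in limma there were 2 genes, PRSS8 and SPINT1, against 2.6% of all, and when the round served as replicate block 4, adding RAB25 and CLDN1, against 6.3%. Of single-array differences, at least 1.5-fold higher in ovary were 1 gene in round 1 (CLDN1, against 0.914% of all) and 0 in round 2 (against 0.804%). At least 1.5-fold lower were 0 in round 1 and 0 in round 2, against 1.11% and 0.419% of all. An exact permutation test of 2 arrays against 2 cannot go below p = 0.333, so none is given.

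**Figure D4:**
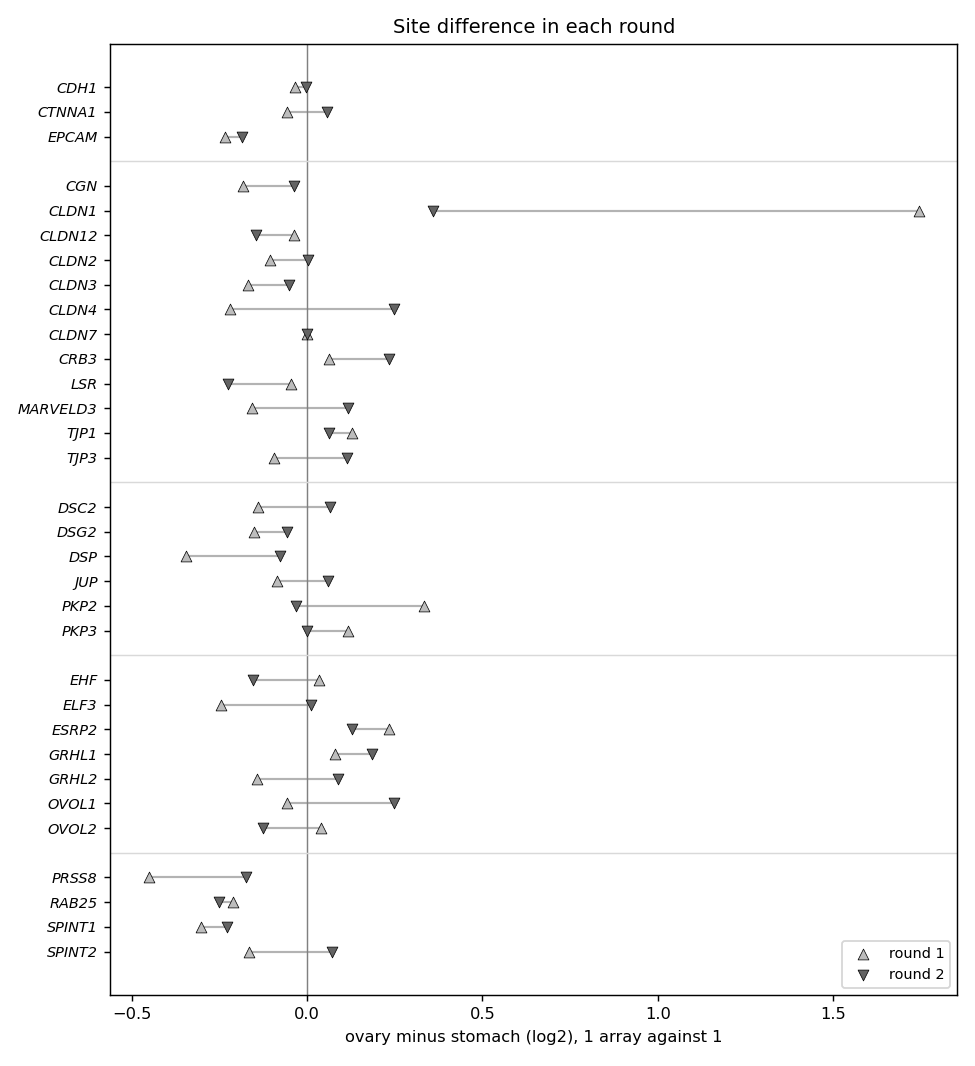
Ovary minus stomach in log2 units for each gene, with 1 array against 1, upward triangles for round 1 and downward triangles for round 2, joined by a line. In 14 of 32 genes the symbols lie on opposite sides of 0, as in 45.1% of all tested genes; PRSS8, SPINT1, RAB25 and EPCAM lie left of 0 in both rounds and CLDN1 right of it.

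The comparison of rounds asks what differed after a second passage through the mouse. With 1 array per site in each round, passage and any difference in harvest or array handling between rounds cannot be told apart. Both round 2 arrays were above both round 1 arrays in 14 of the 32 genes (43.8%), where 22.2% of all tested genes were. The 14 were CDH1, CTNNA1, CLDN3, CLDN12, TJP1, CGN, DSG2, DSC2, JUP, GRHL1, GRHL2, OVOL1, ELF3 and SPINT2. The opposite order held for 1 gene, CLDN2, where 26.8% of all had it. Apart from CLDN2, at 5.71, the mean signals of the list ran from 7.46 to 11.98, where the array medians over all rows were 6.80 to 6.84. The shares of all tested genes were not matched for signal. Whether the order of rounds goes with signal level was not tested. The median round difference was 0.12, beside -0.019 for all tested genes. By group it was 0.19 for desmosome genes, 0.15 for regulators, 0.11 for adherens junction genes, 0.080 for tight junction genes and 0.052 for the surface proteases, inhibitors and RAB25. Over all 32 in stomach lines it was 0.054, with 24 genes higher in round 2 (75.0%, against 44.1% of all), and in ovary lines 0.15, also with 24 higher (against 47.0%). Both sites had a higher round 2 value in 20 genes, where 29.0% of all tested genes had it. In 16 of the 32 genes both sites were higher and the ovary lines were also further apart than the stomach lines. Of all tested genes 16.5% had that order with both parts. With the round 1 ovary array left out, a choice made after seeing the data, both round 2 arrays were above the remaining round 1 array in 18 genes (56.3%), where 33.5% of all were. Leaving out any of the other arrays gave 18 to 21 genes, where 32.1% to 34.9% of all were.

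The list stood at 7 genes with an unadjusted p under 0.05 between rounds in limma, 21.9% against 15% of all tested genes. They were DSC2, GRHL1, SPINT2, CGN, DSG2, CTNNA1 and CLDN3, all higher in round 2, and the smallest adjusted p was 0.287. With the site as a replicate block there were 6, without CTNNA1, against 16.2% of all. Single-array differences of at least 1.5-fold higher were found in 0 genes between stomach lines (against 1.23% of all) and in 1, DSC2, between ovary lines (against 2.41%). At least 1.5-fold lower were 0 in stomach (against 0.935%) and 1, CLDN1, in ovary (against 0.983%). For the interaction of site and round, 0 genes of the list had an unadjusted p under 0.05, where 1.33% of all did. With the site as block there were also 0, against 0.901%, and round differences still counted as error.

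**Figure D5:**
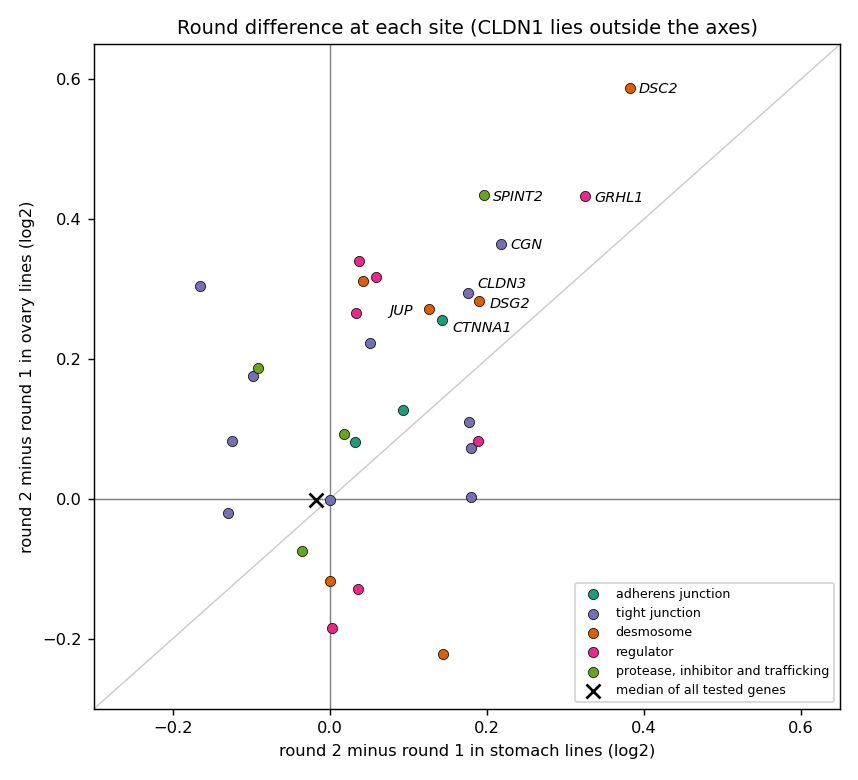
Round 2 minus round 1 in log2 units in stomach lines (x axis) and ovary lines (y axis), 1 point per gene coloured by group, with the line of equal differences and a cross at the median of all 14547 tested genes; genes with a mean difference of at least 0.19 are named. To the upper right DSC2, GRHL1, SPINT2 and CGN lie furthest out; CLDN1, at 0.057 and -1.33, lies outside the axes.

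Other genes of the same structures, 106 in lists outside the 35, were read beside them. Of these 94 were measured, 66 were above the signal minimum, and limma called 0 between sites, 0 between rounds and 0 in the interaction. An unadjusted p under 0.05 was found in 0 of the 66 between sites, 15 between rounds and 0 in the interaction, where 2.6%, 15% and 1.33% of all tested genes had one. The counts of rounds standing apart that follow are to be read against 22.2% upward and 26.8% downward of all tested genes. Of 12 other adherens junction genes, both round 2 arrays were above both round 1 arrays in 8 and below in 0. CDH17, liver-intestine cadherin, had 11.21 and 11.46 in stomach and 10.73 and 11.30 in ovary (0.41 ± 0.18). CDH3, which encodes P-cadherin, had 10.15 and 10.34 in stomach and 10.11 and 10.39 in ovary (0.23 ± 0.070). NECTIN4, an immunoglobulin-like adhesion molecule, differed by 0.30 ± 0.094 and LIMA1, an actin-binding protein, by 0.30 ± 0.10.

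Of 15 other tight junction genes, rounds stood apart upward in 2 and downward in 6. The 2 were MARVELD2, tricellulin (0.38 ± 0.16), and CXADR, the coxsackie and adenovirus receptor (0.36 ± 0.10). CLDN15, a channel-forming claudin, was at 8.48 and 7.87 in stomach and 8.09 and 7.81 in ovary (-0.44 ± 0.15), and CGNL1, paracingulin, which had the largest site difference here (-0.30 ± 0.17), at 6.55 and 6.40 in stomach and 5.95 and 6.39 in ovary. Upward against downward, the counts were 3 and 0 of 6 other desmosome genes, the 3 being PPL, periplakin (0.37 ± 0.13), DSG4 (0.19 ± 0.13) and PERP (0.12 ± 0.10). PKP1, at 0.15 ± 0.13, had overlapping rounds. The counts were 2 and 2 of 6 gap junction genes (PANX1 0.30 ± 0.12, GJB5 0.23 ± 0.13, GJC1 -0.29 ± 0.13 and GJA4 -0.23 ± 0.073). In 13 apical polarity genes they were 3 and 2. DLG1 (0.25 ± 0.071), PALS1 (0.20 ± 0.071) and PARD6B (0.18 ± 0.068) stood apart upward, and CRB2 (-0.25 ± 0.077) and PRKCI (-0.072 ± 0.080) downward. LIN7C, with overlapping rounds, differed by 0.31 between sites. In 10 other regulators and surface proteases they were 3 and 1. ST14 (above), TMPRSS4 (0.28 ± 0.078) and KLF5 (0.10 ± 0.081) stood apart upward and MYB (-0.075 ± 0.071) downward. KLF4 and TMC4 had overlapping rounds and differed by 0.35 and -0.19 between sites. Of desmosomal cadherins outside the list, DSG1, DSG3, DSC1 and DSC3 were below the signal minimum.

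Of 8 repressors of epithelial genes measured, 4 were below the signal minimum: ZEB1, ZEB2, SNAI2 and TCF4. ZEB1 was at 4.76 and 4.80 in stomach and 4.84 and 5.12 in ovary, and ZEB2 at 5.61 and 5.61 in stomach and 5.62 and 5.42 in ovary. SNAI1, TWIST1, TWIST2 and SNAI3 were above it, with mean round differences between -0.17 for SNAI3 and 0.036 for SNAI1. Between sites those 4 differed by -0.026 to 0.021 on average, with opposite signs in the rounds: all 4 were lower in ovary in round 1, by -0.22 (TWIST2) to -0.034, and higher in round 2, by 0.013 to 0.20. CDH2, which encodes N-cadherin, was also below the minimum, at 5.33 and 5.37 in stomach and 5.33 and 5.38 in ovary.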

How the data were processed

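Total RNA from pelleted cells was biotin-labelled with the WT Terminal Labeling Kit (Affymetrix), per the labels' protocols. The deposited log2 values, 1 per probe set and array, were made with Affymetrix Expression Console, per the submitters' processing notes; the sources used here do not say how background was corrected or arrays were normalized. If arrays were scaled to each other, a shift of all transcripts would not be seen.

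Of 33297 rows, 19460 carry 1 gene symbol, 1754 several (not used) and 12083 none. Symbols were updated by gene identifier through a RefSeq table (GRCh38.p14; 19429 rows found, 31 not). The highest-mean probe set stood for a gene. Genes with a mean above the 30th percentile of rows were tested with limma 3.58.1 in R 4.3.3 (two-sided, Benjamini-Hochberg adjusted p under 0.05). Site, round and interaction were fitted separately, with 2 residual degrees of freedom, or 1 with the replicate block. The block was the round in the site fit, and the site in the round and interaction fits. Unless a block is named, standard errors are from fits without it, in which the differences not fitted count as error. The fit was also run on simulated data. The simulated arrays were independent, so that run does not check the p-values for successive passages of 1 lineage. The replicate number is the implantation round, per the labels, and shared by both sites; deviations from site means in the same round correlated across genes at 0.41. The standard errors and p-values of limma take each gene's variance partly from all tested genes, so they are not the spread of that gene alone. They measure only the spread between these samples.

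Genes with a mean site or round difference, or interaction term, of at least 0.25, and CDH1, EPCAM, GRHL2, OVOL2, ESRP1 (not matched) and ESRP2, were to be given in full; the others were added after their values were seen, to cover each role. Up to 4 genes per further list, above the signal minimum and with the largest site or round difference, were named; ZEB1, ZEB2, CDH2 and other genes below the minimum, and PARD6B, PRKCI, KLF5 and MYB, were added afterwards. Members and lists were chosen with earlier results of these data known. Alternatives were other signal minimums, quantile normalization, median centring, other probe-set rules, a trended prior, the replicate block, an adjusted p under 0.10, leaving out each array and other folds. matplotlib 3.10.9 drew the figures.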

Additional observations from a re-analysis of the deposited data

How the results depend on the processing

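Between sites, between rounds and in the interaction, limma called 0 genes with no signal minimum or one at the 50th percentile. It also called 0 with quantile normalization, median centring, other probe-set rules, a trended prior, the replicate block and an adjusted p under 0.10. With 2 residual degrees of freedom or fewer, an unchanged 0 does not show that no gene differed. The replicate block, with 1 residual degree of freedom, changed no call (0 genes in each comparison). The median site difference of the list ran from -0.13 without the round 2 ovary array to 0.043 without the round 1 ovary array. The median round difference ran from 0.085 to 0.16 when arrays were left out, and from 0.098 (quantile normalization) to 0.14 (median centring). At a lower threshold of 0.32 log2 units in place of 1.5-fold, single-array differences in either direction took in 4 genes (in place of 1) between sites in round 1, where 9.79% of all tested genes passed, and 1 (in place of 0) in round 2, against 7.49%. They took in 2 (in place of 0) between stomach lines, against 13.4%, and 6 (in place of 2) between ovary lines, against 15.7%. At 2-fold the last was 1, CLDN1, against 0.894%. Of 64 site and round differences of single genes, 4 changed sign under median centring, 2 under quantile normalization, 18 without the round 1 ovary array, 13 without the round 2 stomach array, 10 without the round 2 ovary array and 5 without the round 1 stomach array. Chosen after seeing the data, the count of genes with ovary arrays both below was 6 with all arrays and 20 without the round 2 ovary array, where 29.4% of all genes were. The count with ovary arrays both above was 3 and, without the round 1 ovary array, 14, where 31.5% of all were.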
